A study of Mus musculus with 8 samples.

Results

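The fibroblast growth factor (FGF) module of the developing mouse ventral midbrain was followed through 36 genes, taken by symbol from the annotation of the array: 17 secreted FGF ligands, the 4 intracellular FGFs *Fgf11* to *Fgf14*, 5 receptor genes, 7 feedback inhibitors and 3 ETS transcription factor genes. All 36 were measured, among 19938 genes that have a probe set with a single gene symbol. The 3 genes with several probe sets (*Spred2*, *Etv1* and *Etv5*) are represented by the probe set with the highest mean over the arrays.

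RNA was hybridised to 8 Affymetrix Mouse Gene 1.0 ST arrays, 2 for each of 4 groups. The lateral domain and the mesodiencephalic dopaminergic (mdDA) domain were cut by laser microdissection from PFA-fixed, stained midbrain sections of E12.5 BAT-gal embryos on a mixed B6D2F1 background. BAT-gal is a *lacZ* reporter of WNT/b-catenin signaling, and the mdDA domain was the ventral, reporter-positive and PITX3-positive territory, whereas the lateral domain lacked both. The other 2 groups were mdDA neurons of genotype *Pitx3*GFP/+ on a mixed C57BL/6 x 129/Ola background, taken from the ventral midbrain by FACS for GFP at E13.5 or at E14.5, so that these cells carried GFP in a copy of the *Pitx3* locus. Each domain came from 5 embryos, the number behind the sorted cells is not given in the sources used here, and the 2 arrays of a group are called technical replicates, so the p-values below measure only the spread between arrays. In dissected tissue and sorted pools, fewer cells of a type and less RNA per cell cannot be told apart.

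Secreted FGFs bind the tyrosine kinase receptors FGFR1 to FGFR4 with heparan sulfate as a cofactor and activate the RAS-MAPK cascade, which switches on ETS factors of the PEA3 group and, in turn, inhibitors of the same cascade such as Sprouty and SPRED proteins and the ERK phosphatase DUSP6. In the midbrain, FGFs from the isthmic organizer at the border to the hindbrain pattern the tissue and keep progenitors dividing. The intracellular FGFs lack a secretion signal, do not act through FGF receptors in the classical way, and bind voltage-gated sodium channels, microtubules and MAPK scaffold proteins in neurons.

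On the arrays, 9 mdDA neuron markers averaged a log2 level of 5.31 and 5.35 in the lateral domain, 8.12 and 8.14 in the mdDA domain and 8.93 to 9.07 in sorted neurons. Between the domains limma called 8 of the 9 higher in the mdDA domain, against 1.52% of all probe sets. *Pitx3* was not called (0.67, limma adjusted p = 0.228), whereas the study lists it among the enriched genes. The GABAergic list (6 genes) averaged 7.68 and 7.82 in the lateral domain, 4.60 and 4.87 in the mdDA domain and 5.60 to 6.04 in sorted neurons. By limma all 6 were lower in the mdDA domain when set against the lateral domain, and 4 were called higher in sorted neurons than in the mdDA domain, whereas *Tal2* (-0.17) and *Gata2* (-0.02) were not. The part of these cells in the differences between the domains was not tested. The erythroid list (4 measured genes) averaged 8.04 to 8.19 in the dissected tissue and 4.09 to 4.25 in sorted neurons, and the endothelium and pericyte list (8 genes) 4.62 to 4.89 and 3.96 to 4.18. The 2 arrays of a group correlated at 0.966 to 0.983 across probe sets. As a reference for weak signal, the 95th percentile of 1245 chemoreceptor probe sets was taken on each array, which was 4.25 to 4.42 in dissected tissue and 3.98 to 4.10 in sorted neurons. A gene under it on both arrays of a group is called dim in that group. This is not a detection call. With 2 arrays per group, a lack of overlap between groups is a description and not a test.

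Of the 36 members, 9 were dim in all 4 groups, 6 in some and 21 in none. A limma F test over the 8 arrays found that 11 of 36 members differed among the 4 groups at a false discovery rate below 10% (Benjamini-Hochberg over all 35556 probe sets, a threshold at which a gene is said to be called), and 21.4% of all probe sets did. The 11 were *Fgf12*, *Fgf13* and *Fgf14*, the receptor genes *Fgfr2* and *Fgfr3*, the inhibitor genes *Spry1*, *Spry2* and *Dusp6*, and the ligand genes *Fgf9*, *Fgf15* and *Fgf18*. The lowest adjusted p were those of *Fgf13* (0.00139), *Fgfr2* (0.00291) and *Fgf14* (0.00309), and the highest among the 11 was that of *Fgf9* (0.0994).

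**Figure D1:**
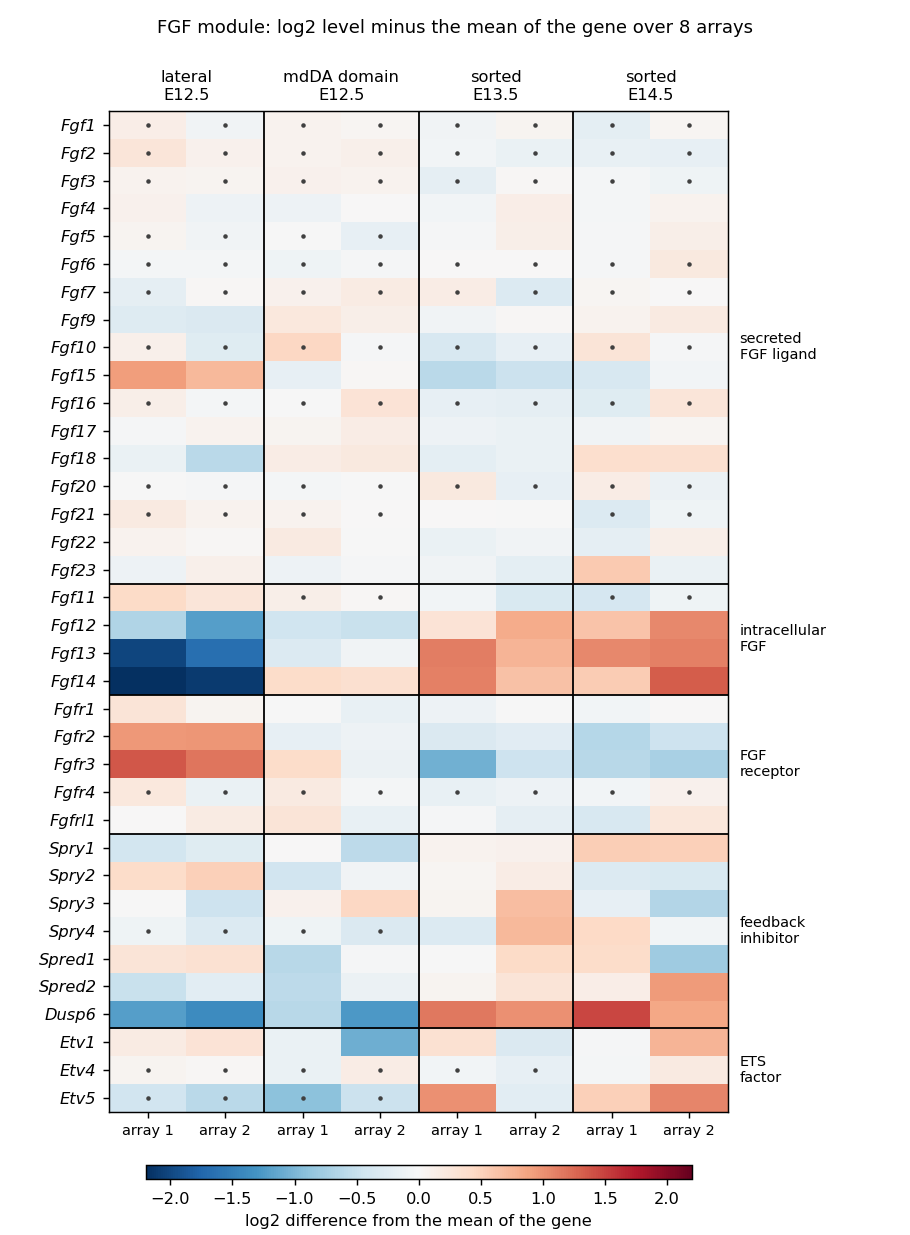
Log2 level of each of the 36 members (rows, by role) on each of the 8 arrays (columns, by group), as the difference from the mean of that gene over the arrays; red is above and blue below that mean, and dots mark a gene that is dim in the group. Most secreted ligands are pale, with *Fgf15* the darkest, whereas *Fgf12*, *Fgf13*, *Fgf14* and *Dusp6* are blue in the lateral domain and red in sorted neurons, and *Fgfr2* and *Fgfr3* run the other way.

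The mdDA domain was set against the lateral domain with limma on the 4 arrays of dissected tissue, with the replicate number as a block. The question was which transcripts mark the WNT/b-catenin-responsive dopaminergic territory. In this test 2 of the 36 members were higher in the mdDA domain, *Fgf13* and *Fgf14*, where 1.52% of all probe sets were called higher, and 2 were lower, *Fgfr2* and *Fgfr3*, where 1.1% were called lower (4 of 36 in all, against 2.62%). Without the block, where 2.33% of probe sets were called higher and 1.7% lower, *Fgf15* joined the lower members. With 3 arrays and no block, *Fgf13* (adjusted p 0.103 to 0.153), *Fgfr2* (0.146 to 0.154) and *Fgfr3* (0.135 to 0.313) were not called whichever array was left out, and *Fgf14* was called without either lateral array but not without mdDA domain replicate 1 (0.129) or replicate 2 (0.123). The median log2 difference was -0.01 over the members and -0.01 over all probe sets. The mean of the sorted groups was then set against the mdDA domain with limma over all 8 arrays. Here 5 of 36 members were higher in the sorted neurons (*Fgf12*, *Fgf13*, *Spry1*, *Dusp6* and *Etv5*) against 8.53% of all probe sets, and 1 was lower (*Fgfr3*) against 9.84% (6 of 36 in all, against 18.4%). The median difference was -0.07 over the members and -0.08 over all probe sets. The comparisons share the mdDA domain arrays, so a level that strays there moves both in opposite directions. Stage, strain, fixation and isolation differ between the dissected and the sorted material and cannot be told apart from the change of cells.

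**Figure D2:**
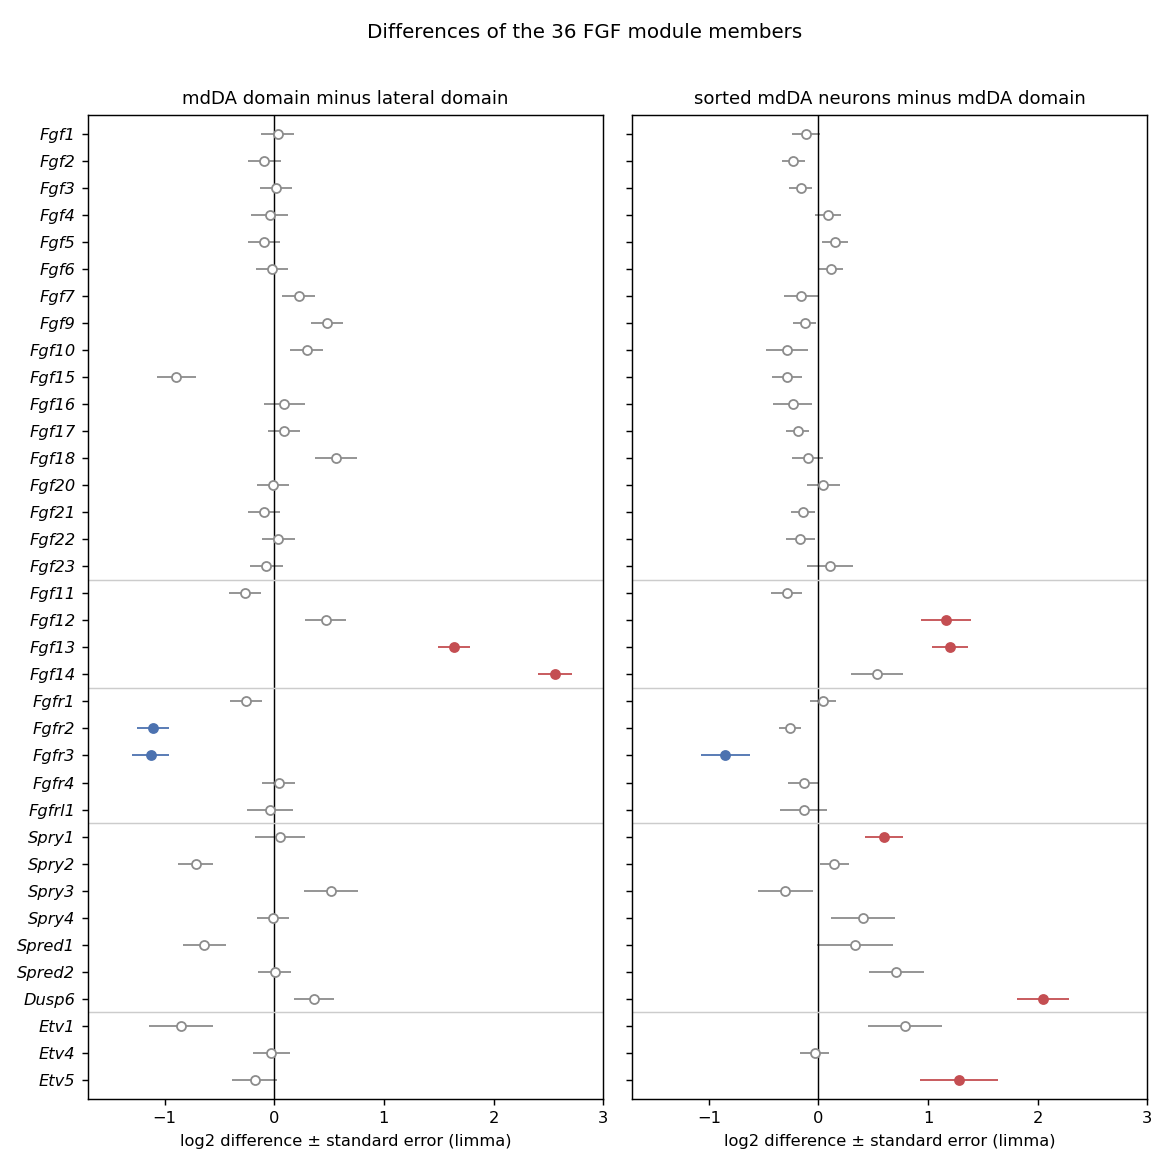
Log2 difference (horizontal axis) with its limma standard error for each of the 36 members (rows, by role) between the mdDA and the lateral domain (left) and between sorted mdDA neurons and the mdDA domain (right); filled red and blue points are called higher and lower at a false discovery rate below 10%. All 17 secreted ligands are open in both panels, *Fgf14* (2.56) and *Fgf13* (1.64) stand out on the left and *Dusp6* (2.05) on the right.

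Of the 8 members called in these comparisons, 4 have a single start site in the RefSeq promoter table (build GRCm38.p6), and the 250 bases before it are shown because each of these genes differed between the groups. Capitals mark GGAA or TTCC, the core that ETS factors bind read on either strand. The windows are chr14:124192547-124192796 (minus strand) for *Fgf14*, chr7:130266809-130267058 (minus strand) for *Fgfr2*, chr3:37639697-37639946 (plus strand) for *Spry1* and chr10:99262981-99263230 (plus strand) for *Dusp6*, each written 5′ to 3′ on the strand of the gene.
Fgf14: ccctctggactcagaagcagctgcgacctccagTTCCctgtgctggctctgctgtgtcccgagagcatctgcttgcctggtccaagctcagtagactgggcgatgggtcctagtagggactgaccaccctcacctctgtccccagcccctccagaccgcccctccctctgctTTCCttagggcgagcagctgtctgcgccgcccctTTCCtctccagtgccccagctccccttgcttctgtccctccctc
Fgfr2: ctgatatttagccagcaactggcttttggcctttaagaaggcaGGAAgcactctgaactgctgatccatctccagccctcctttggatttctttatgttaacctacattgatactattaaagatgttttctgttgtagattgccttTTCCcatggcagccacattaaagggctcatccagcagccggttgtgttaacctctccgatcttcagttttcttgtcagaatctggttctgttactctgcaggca
Spry1: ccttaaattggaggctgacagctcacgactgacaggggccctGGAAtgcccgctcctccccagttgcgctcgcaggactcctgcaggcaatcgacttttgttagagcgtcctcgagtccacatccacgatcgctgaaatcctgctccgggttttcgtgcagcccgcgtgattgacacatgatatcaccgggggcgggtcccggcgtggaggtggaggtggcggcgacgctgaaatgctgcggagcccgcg
Dusp6: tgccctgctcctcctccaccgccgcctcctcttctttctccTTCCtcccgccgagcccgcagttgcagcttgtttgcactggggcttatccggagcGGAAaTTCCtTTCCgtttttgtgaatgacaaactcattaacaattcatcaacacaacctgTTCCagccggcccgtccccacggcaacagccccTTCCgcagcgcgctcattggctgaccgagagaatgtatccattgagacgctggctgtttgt
The *Dusp6* window held 6 copies of the core, and 8.69% of 32851 RefSeq windows of the same length held at least as many. *Fgf14* held 3 copies (54.7% of windows held as many or more), *Fgfr2* 2 (76.8%) and *Spry1* 1 (93.4%), and the median window held 3. The longer ETS consensus CCGGAAG, searched on both strands, was in none of the 16 windows of the 8 called members and in 6.91% of all windows. The WNT-responsive element of TCF/LEF factors, searched as CTTTG followed by any pair of A or T on both strands, was also in none of the 16 and in 14.8% of all windows. The GC content was 64.0% for *Fgf14*, 62.4% for *Spry1*, 56.4% for *Dusp6* and 44.0% for *Fgfr2*. A match is a string of letters and not a bound site.

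Of the 4 intracellular FGF genes 2 were called between the domains and 2 in sorted neurons, with medians of 1.05 and 0.85 on the log2 scale. The shares called over all probe sets were 2.62% and 18.4%. *Fgf14*, whose product FGF14 modulates the sodium channels that set neuronal firing, had log2 levels of 4.4 and 4.55 on the lateral arrays, 7.06 and 7.01 on the mdDA domain arrays, 7.77 and 7.31 on the E13.5 arrays and 7.22 and 7.99 on the E14.5 arrays. The lateral arrays lay just above the weak-signal reference and far below the other 6, and no other group overlapped with them. The mdDA domain exceeded the lateral domain by 2.56 on the log2 scale (standard error 0.15, 5.89-fold, limma adjusted p = 0.0301). Sorted neurons exceeded the mdDA domain by 0.53 (standard error 0.24), which did not pass (limma adjusted p = 0.205).

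*Fgf13*, which encodes a microtubule-stabilising and sodium channel-binding protein of neurons, had log2 levels of 5.57 and 5.93 in the lateral domain, 7.28 and 7.51 in the mdDA domain, 8.72 and 8.33 in E13.5 and 8.64 and 8.69 in E14.5 neurons. The level climbed from the lateral domain to the mdDA domain to sorted neurons with no overlap, and the sorted stages overlapped with each other. The first step was 1.64 on the log2 scale (standard error 0.15, 3.12-fold, limma adjusted p = 0.0464) and the second 1.2 (standard error 0.17, 2.30-fold, limma adjusted p = 0.0103). *Fgf13* was called in the second step under all 17 alternatives, with adjusted p from 0.00213 to 0.0843.

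*Fgf12*, a close relative that also binds sodium channels, had log2 levels of 5.0 and 4.46 in the lateral domain, 5.22 and 5.17 in the mdDA domain, 5.96 and 6.47 in E13.5 and 6.29 and 6.72 in E14.5 neurons. All sorted arrays lay above all dissected ones. Its difference between the domains was 0.47 (standard error 0.19, limma adjusted p = 0.408), and sorted neurons exceeded the mdDA domain by 1.16 (standard error 0.23, 2.24-fold, limma adjusted p = 0.0271). The call was lost without mdDA domain replicate 1 (1.19, adjusted p = 0.14) and without mdDA domain replicate 2 (1.13, adjusted p = 0.132), and held in the other 15 of 17 alternatives.

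*Fgf11*, the remaining intracellular FGF gene, was at 4.51 and 4.35 in the lateral domain and at 4.20 and 4.11 in the mdDA domain, where it was dim. In sorted neurons it lay between 3.71 and 4.02 and was dim at E14.5. It was not called in any comparison, and its differences of -0.27 and -0.29 had the opposite sign to those of the other 3 genes.

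Most genes of known partners of intracellular FGFs were not called. The partners were 4 sodium channel genes (*Scn1a*, *Scn2a*, *Scn3a* and *Scn8a*) and the scaffold gene *Mapk8ip2*. *Scn2a* is represented by the brightest of 14 probe sets. Between the domains limma called 0 of these 5, with 3 at an unadjusted p below 0.05. *Scn3a* was at 0.83 (limma adjusted p = 0.121) and passed without the block (0.0603). Only *Mapk8ip2* was higher in sorted neurons (0.52, limma adjusted p = 0.0791). The F test over the 4 groups called 2 of the 5, *Scn3a* and *Mapk8ip2* (adjusted p = 0.0368 for both). The pan-neuronal list averaged 9.25 and 9.30 in the lateral domain, 9.60 and 9.63 in the mdDA domain and 9.82 to 9.95 in sorted neurons. Of its 8 genes 0 were called by limma between the domains (2 at an unadjusted p below 0.05). Their differences ran from 0.03 to 0.92, with a median of 0.23. The largest was that of *Stmn2* (limma adjusted p = 0.104), which passed without the block (0.0435). In sorted neurons 3 of the genes were higher (*Snap25* by 1.03, *Syt1* by 0.79 and *Stmn2* by 0.64). The part of the neuron content in the levels of *Fgf12*, *Fgf13* and *Fgf14* was not tested.

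**Figure D3:**
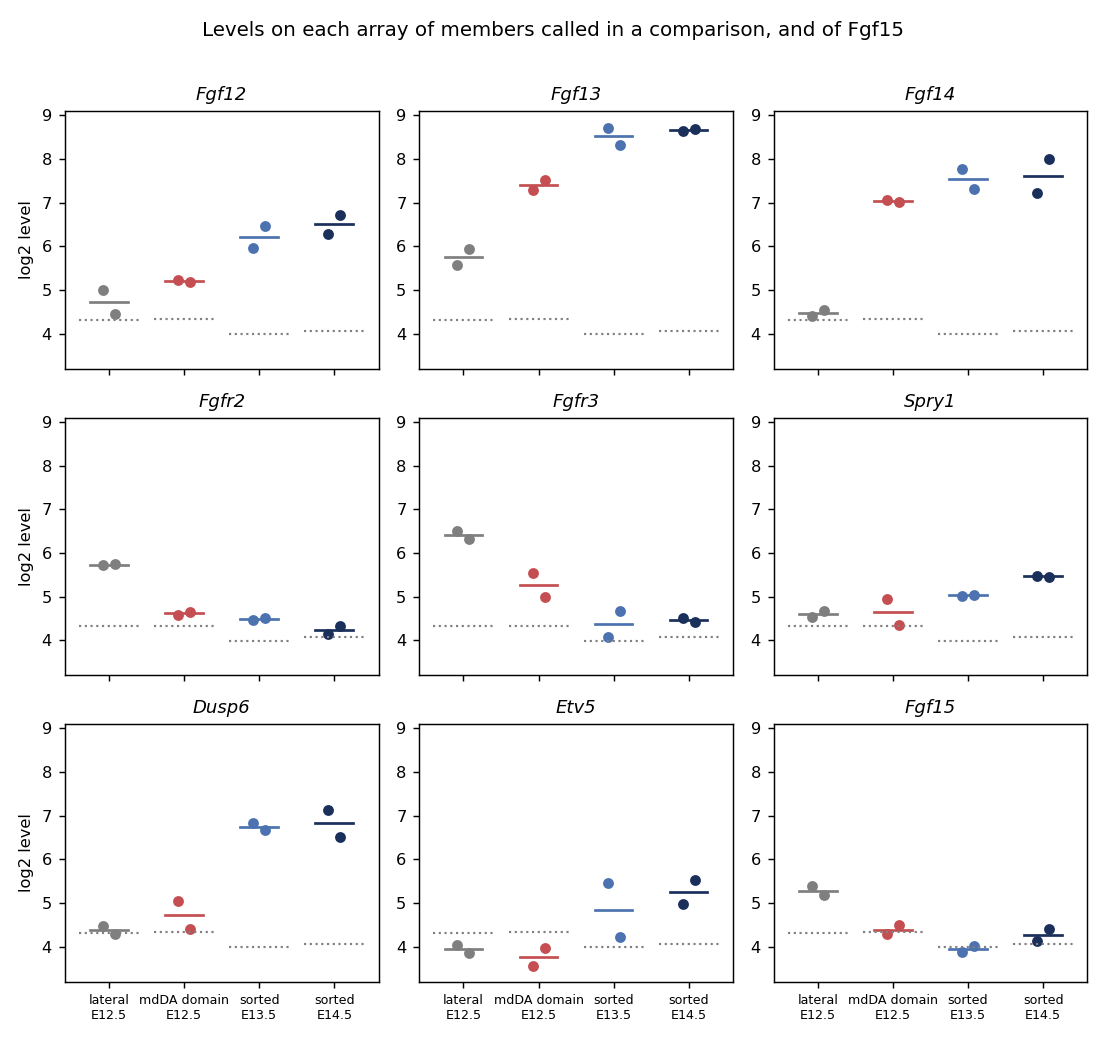
Log2 level (vertical axis) on each array (points) and mean of the 2 arrays (bars) in the 4 groups for the 8 members called in a comparison and for *Fgf15*; dotted lines are the weak-signal reference of each group. *Fgf13* climbs in steps from 5.57 to 8.72, *Fgfr2* and *Fgfr3* fall towards the dotted line, and *Dusp6* is above 6.5 only on the sorted arrays.

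Among the receptors, *Fgfr2* and *Fgfr3*, which encode ligand-activated tyrosine kinases typical of neural progenitors and glia, were lower in the mdDA domain. *Fgfr2* had log2 levels of 5.73 and 5.74 on the lateral arrays, 4.59 and 4.65 on the mdDA domain arrays, 4.45 and 4.52 at E13.5 and 4.15 and 4.32 at E14.5. The lateral arrays stood apart, and the other 6 arrays lay between 4.15 and 4.65, close to the weak-signal reference. The mdDA domain was 2.16-fold lower (log2 difference -1.11, standard error 0.15, limma adjusted p = 0.0726), and the further difference to sorted neurons of -0.26 did not pass (limma adjusted p = 0.165).

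*Fgfr3* had log2 levels of 6.49 and 6.31 in the lateral domain, 5.54 and 5.0 in the mdDA domain, 4.07 and 4.67 in E13.5 and 4.51 and 4.42 in E14.5 neurons. The order was the reverse of that of *Fgf13*, again with no overlap. The mdDA domain was 2.19-fold lower than the lateral domain (log2 difference -1.13, standard error 0.17, limma adjusted p = 0.0899, 0.101 after quantile normalization), and sorted neurons were 1.8-fold lower than the mdDA domain (-0.85, standard error 0.22, limma adjusted p = 0.0576). The second step rested on the scaling and on 1 array. It did not pass after quantile normalization (-0.71, adjusted p = 0.112), without mdDA domain replicate 1 (-0.58, adjusted p = 0.298) or with E14.5 neurons alone (-0.80, adjusted p = 0.112), and over all 17 alternatives the adjusted p ran from 0.024 to 0.298.

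The other receptors did not pass in any comparison. *Fgfr1*, which encodes the receptor best known from midbrain patterning, lay between 6.69 and 6.92 in the lateral domain and between 6.47 and 6.64 in the other groups, which overlapped. *Fgfrl1*, which encodes a receptor-like protein without a kinase domain, lay between 4.93 and 5.56, and *Fgfr4* was dim in all 4 groups (3.69 to 4.07).

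The averages of the progenitor and cell division markers fell in the same direction as *Fgfr2* and *Fgfr3*. The neural progenitor list (10 genes) averaged 7.58 and 7.59 in the lateral domain, 6.89 and 6.93 in the mdDA domain and 5.70 to 6.10 in sorted neurons. Of its 10 genes 3 were called lower by limma between the domains, where *Hes1* (0.15) ran the other way, and 8 in sorted neurons. The shares called lower over all probe sets were 1.1% and 9.84%. The cell division list (9 measured genes) averaged 6.71 and 6.85, then 5.32 and 5.44, then 4.23 to 4.27, with 6 and 7 genes called lower. None of the progenitor genes was dim in any group, and of the division genes 1 was dim in E13.5 and 2 in E14.5 neurons. The part of these cells in the receptor differences was not tested.

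Of the 17 secreted ligands 3 were called in the F test over the 4 groups, against 21.4% of all probe sets. Between the domains limma called 0 of 17, where 2.62% of all probe sets were called. An unadjusted p below 0.05 was found for 3 ligands (*Fgf9*, *Fgf15* and *Fgf18*) and for 4867 of 35556 probe sets. Between sorted neurons and the mdDA domain limma called 0 of 17, against 18.4% of all probe sets. Here 0 ligands and 9877 probe sets had an unadjusted p below 0.05. The median difference was 0.01 in the first comparison and -0.14 in the second. Of the 17, 8 were dim in all 4 groups: *Fgf1*, *Fgf2*, *Fgf3*, *Fgf6*, *Fgf7*, *Fgf10*, *Fgf16* and *Fgf20*, with levels between 2.85 and 4.03. *Fgf21*, a metabolic hormone, was dim in 3 groups and *Fgf5* in the 2 dissected ones. The 7 that were dim in none were *Fgf4*, *Fgf9*, *Fgf15*, *Fgf17*, *Fgf18*, *Fgf22* and *Fgf23*. Among these *Fgf4*, *Fgf17*, *Fgf22* and *Fgf23* stayed between 4.48 and 5.44 with differences of at most 0.19 in size between the tissues.

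*Fgf15*, a ligand gene of the dorsal and lateral neural tube, had the widest range of group means among the secreted FGFs (1.34 on the log2 scale). It had log2 levels of 5.40 and 5.18 in the lateral domain, 4.29 and 4.50 in the mdDA domain, 3.89 and 4.01 at E13.5 and 4.13 and 4.42 at E14.5. Only the lateral arrays lay clearly above the weak-signal reference, and they overlapped with no other group. The mdDA domain was at -0.89 (standard error 0.18) with adjusted p = 0.141 in the paired limma fit and 0.0745 in the limma fit without the block, and over 12 alternatives the adjusted p ran from 0.00301 to 0.282.

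*Fgf18*, a ligand gene of the isthmic region and of skeletal tissue, was at 5.61 and 5.17 in the lateral domain, 5.93 and 5.98 in the mdDA domain, 5.54 and 5.61 at E13.5 and 6.13 and 6.12 at E14.5. The lateral arrays lay below the mdDA domain arrays, and the stages of sorted neurons did not overlap either. The difference between the domains was 0.56 (standard error 0.19, limma adjusted p = 0.324). *Fgf9*, which encodes a ligand made by neurons, was at 4.34 and 4.31 in the lateral domain, 4.86 and 4.75 in the mdDA domain and 4.54 to 4.83 in sorted neurons. The lateral arrays were the lowest of the 8. Its difference between the domains was 0.48 (standard error 0.15, limma adjusted p = 0.285). Both genes passed when only the 21789 probe sets with a single symbol were tested, where 6.16% of probe sets were called higher against 1.52% in the full table.

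Of the isthmic organizer list (6 genes), which marks the known source of FGFs at the midbrain border, 2 were higher in the mdDA domain (*En2* by 3.17 and *Cnpy1* by 2.84, limma adjusted p = 0.0301 and 0.034). *Pax2* (-0.01), *Pax5* (-0.17), *Pax8* (0.05) and *Sp8* (-0.16) were not called, and 0 of the 6 differed from the mdDA domain in sorted neurons by limma (2 at an unadjusted p below 0.05). *En2* is also expressed by mdDA neurons. The meninges and mesenchyme list (8 genes), another source of FGFs, averaged 3.89 to 4.14 on all arrays, and 0 of 8 were called by limma in either comparison (0 and 2 at an unadjusted p below 0.05).

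Among the feedback inhibitors, *Dusp6*, which encodes the ERK phosphatase induced by FGF signaling, had the largest difference of the 7 genes in sorted neurons. It had log2 levels of 4.47 and 4.29 in the lateral domain, 5.06 and 4.42 in the mdDA domain, 6.83 and 6.67 at E13.5 and 7.14 and 6.52 at E14.5. The sorted arrays all lay above the highest dissected array, and the domains overlapped with each other. Sorted neurons exceeded the mdDA domain by 2.05 (standard error 0.24, 4.15-fold, limma adjusted p = 0.00711). *Dusp6* was called in all 17 alternatives, with adjusted p from 8.65e-04 to 0.0521.

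*Spry1*, a Sprouty gene, had log2 levels of 4.54 and 4.66 in the lateral domain, 4.95 and 4.35 in the mdDA domain, 5.02 and 5.03 at E13.5 and 5.48 and 5.46 at E14.5. The sorted arrays lay above the dissected ones, by little at E13.5. The difference of 0.60 (standard error 0.17, 1.51-fold, limma adjusted p = 0.0791) was not called in 10 of 17 alternatives. Among these were the fit with the replicate block (adjusted p = 0.106), E13.5 neurons alone (0.38, adjusted p = 0.311) and the fit without mdDA domain replicate 2 (0.30, adjusted p = 0.266), and the adjusted p ran from 0.0279 to 0.311.

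*Etv5*, an ETS factor gene of the PEA3 group that is a usual target of FGF signaling, had log2 levels of 4.04 and 3.86 in the lateral domain, 3.56 and 3.98 in the mdDA domain, 5.46 and 4.23 at E13.5 and 4.98 and 5.53 at E14.5. It was dim in both domains, and 1 of the E13.5 arrays lay close to them. The mean over the sorted arrays was 1.64-fold above the weak-signal reference of the mdDA domain. The E13.5 array at 4.23 lay below that reference, so no least fold holds for each array. The fitted difference was 1.28 (standard error 0.35, limma adjusted p = 0.0683), and E13.5 neurons alone did not pass (1.07, limma adjusted p = 0.174). A dimmer probe set of the same gene differed by 0.23 (limma adjusted p = 0.495), the fit with the replicate block gave an adjusted p of 0.103, and 9 of 18 alternatives did not pass (adjusted p 0.0238 to 0.495).

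Genes of the immediate early list (10 genes, chosen after the data were seen) were also high in the sorted cells. The list averaged 5.06 and 4.95 in the lateral domain and 5.05 and 4.85 in the mdDA domain. In sorted neurons it averaged 6.86 and 6.77 at E13.5 and 7.54 and 7.52 at E14.5. There limma called 8 of its 10 genes higher than in the mdDA domain, against 8.53% of all probe sets. *Fos*, which encodes a transcription factor switched on within minutes by many stimuli, exceeded the mdDA domain by 4.35 (standard error 0.13). The list had 0 of 10 genes called by limma between the domains (2 at an unadjusted p below 0.05), where *Dusp6*, *Spry1* and *Etv5* were not called either. Its part in the levels of these 3 genes was not tested.

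**Figure D4:**
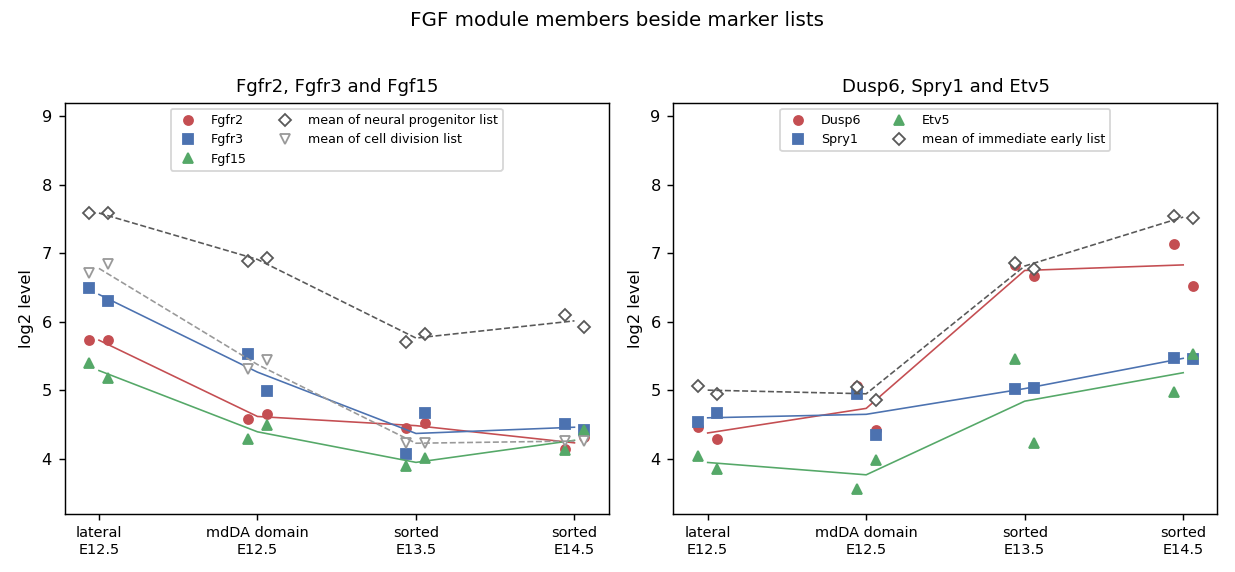
Log2 level (vertical axis) on each array and group mean (lines) in the 4 groups, for *Fgfr2*, *Fgfr3* and *Fgf15* beside the mean of the neural progenitor and cell division lists (left), and for *Dusp6*, *Spry1* and *Etv5* beside the mean of the immediate early list (right). On the left all traces are highest in the lateral domain. On the right all are higher in sorted neurons than in either domain, by little for *Spry1* at E13.5 (5.02) and for an E13.5 array of *Etv5* (4.23).

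The other inhibitors were not called between the domains or between sorted neurons and the mdDA domain. *Spry2*, a Sprouty gene expressed in the midbrain under the isthmic organizer, was at 5.99 and 6.12 in the lateral domain, 5.16 and 5.51 in the mdDA domain, 5.63 and 5.75 at E13.5 and 5.29 and 5.24 at E14.5. The lateral arrays were the highest of the 8. The difference between the domains was -0.72 (standard error 0.16, limma adjusted p = 0.165). It passed with all 8 arrays in the limma fit and no block (0.0833) and with 1-symbol probe sets (0.0101). *Spry2* was called in the F test over the 4 groups (adjusted p = 0.0458). *Spry3* lay between 4.35 and 5.68 (0.52 between the domains, limma adjusted p = 0.486) and *Spred1*, a relative of *Spred2*, between 5.33 and 6.54 (-0.64, limma adjusted p = 0.288). The domains did not overlap for either gene, but neither difference passed. *Spry4* was dim in both domains and reached 4.89 on 1 E13.5 array.

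*Spred2*, which encodes a membrane inhibitor of RAS-MAPK signaling, was at 6.79 and 7.06 in the lateral domain, 6.70 and 7.16 in the mdDA domain, 7.35 and 7.57 at E13.5 and 7.42 and 8.22 at E14.5. The sorted arrays were above the dissected ones, with a difference to the mdDA domain of 0.71 (standard error 0.25, limma adjusted p = 0.128), and the adjusted p ran from 0.0439 to 0.503 over 18 alternatives. A second probe set of the gene differed by -0.33 (limma adjusted p = 0.31), so the probe sets of *Spred2* disagreed in sign.

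Of the other ETS genes, *Etv1* was at 6.32 and 6.44 in the lateral domain, 5.99 and 5.07 in the mdDA domain and 5.81 to 6.88 in sorted neurons. The domains did not overlap (-0.85, standard error 0.29, limma adjusted p = 0.332), and the sorted arrays overlapped with both. Its difference to the mdDA domain in sorted neurons was 0.79 (standard error 0.34, limma adjusted p = 0.194), whereas its dimmer probe set, at 4.43 and 4.49 in the mdDA domain and 5.19 to 5.78 in sorted neurons, differed by 1.02 (limma adjusted p = 0.0146). For the brighter probe set the adjusted p ran from 0.0146, with the dimmer probe set in its place, to 0.66 over 18 alternatives. *Etv4* was dim in 3 groups and lay between 3.82 and 4.19.

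Between E13.5 and E14.5 sorted neurons limma called 0 of 36 members and 0 of all 35556 probe sets, and the lowest adjusted p was 0.744 among the members and 0.605 overall. At an unadjusted p below 0.05 there were 3 members and 6.06% of all probe sets. The 3 were *Fgf18* (higher by 0.55 at E14.5, standard error 0.13), *Spry1* (0.44, standard error 0.13) and *Spry2* (-0.42, standard error 0.13). Their arrays did not overlap between the stages, but the genes were picked by p on these arrays, so this adds no support. The median difference was 0.08 over the members and 0.00 over all probe sets. The largest difference in size was that of *Spry3* (-0.78, standard error 0.30, limma adjusted p = 0.833).

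Other genes of the FGF pathway were taken from a list of 33, of which 27 were measured. Against 1.1% of all probe sets called lower and 1.52% higher, limma called 0 of 27 lower between the domains and 1 higher. It was *Flrt2*, which encodes a transmembrane protein of the FLRT family that can associate with FGF receptors, with log2 levels of 6.03 and 5.87 in the lateral domain and 7.55 and 7.61 in the mdDA domain (difference 1.63, standard error 0.16, adjusted p = 0.0507). In sorted neurons *Flrt2* was at 7.81 to 8.29, a further 0.51 (standard error 0.11, limma adjusted p = 0.0356). The order of tissues for *Flrt2* was that of *Fgf13*. *Flrt1* (-0.89) and *Flrt3* (-0.67) ran the other way between the domains. They were not called with the block (limma adjusted p = 0.149 and 0.172) and passed without it (0.0816 and 0.0966). The F test over the 4 groups called 9 of the 27, all of these FLRT genes among them, against 21.4% of all probe sets.

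In sorted neurons 6 of the 27 were higher than in the mdDA domain, against 8.53% of all probe sets, and 2 were lower, against 9.84%. The median over the list was 0.00. The largest difference was that of *Dusp4*, which encodes another phosphatase of MAP kinases. It was at 6.44 and 6.26 in the lateral domain, 6.72 and 6.78 in the mdDA domain and 8.70 to 8.91 in sorted neurons, with no overlap, a difference of 2.05 (standard error 0.12, 4.14-fold, limma adjusted p = 9.55e-04), beside 2.05 for *Dusp6*. *Spred3* (0.99), the MAPK kinase gene *Map2k2* (0.77), the phosphatase gene *Ptpn11* (0.65) and the docking protein gene *Frs3* (0.53) were also higher, with limma adjusted p of 0.0426, 0.017, 0.0595 and 0.0966. *Fgfbp3*, which encodes an FGF-binding protein, and *Sos2*, which encodes a RAS exchange factor, were lower (-0.47 and -0.38, limma adjusted p = 0.0608 and 0.0831).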

How the data were processed

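The members and gene lists were chosen with earlier results of these data known. Groups and replicate numbers came from the sample labels. Each array was deposited as log2 values of its probe sets, which the authors made by RMA in Affymetrix Expression Console 1.2 (background correction, sketch-quantile normalization and summary per probe set), and these were used as deposited. RMA compresses differences of weak probe sets, so differences of dim genes can be understated, which was not tested here. The genome build behind the probe sets is not given in the sources used here. Of 35556 probe sets 21789 had 1 gene symbol and 1621 had several, and only the former are named.

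Differences were tested with limma 3.58.1 in R 4.3.3 with default empirical Bayes settings and p-values were adjusted over the whole table by the Benjamini-Hochberg method. A gene is called where the false discovery rate was below 10%. The mdDA domain was tested against the lateral domain on 4 arrays with the replicate number as a block (1 residual degree of freedom), since the methods of the study name a paired test, and the other comparisons without a block. All members are accounted for, and from other lists any called member may be named. The tests were checked on simulated data. Promoter windows come from RefSeq, build GRCm38.p6. Figures and sequence searches used Python 3.11.15, pandas 2.3.3 and matplotlib 3.10.9. Depth does not apply to arrays, and their number limits the precision. Some genes are not reported here.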

Additional observations from a re-analysis of the deposited data

How the results depend on the processing

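Every difference of a called member kept its direction in all alternatives. The reversal that was seen came from the second probe set of *Spred2* in sorted neurons (-0.33). Between the domains, the 2 higher members were 4 with tests confined to probe sets of 1 gene symbol and 0 to 1 when an array was left out. The 2 lower members were 4 with all 8 arrays in the fit and no block (3 with no block alone), 1 after quantile normalization (*Fgfr2*), 6 with 1-symbol probe sets, 0 at a false discovery rate of 5%, and 0 to 0 when an array was left out. Among the 1-symbol probe sets 6.16% were called higher and 5.32% lower, against 1.52% and 1.1% in the full table. A fit on 3 arrays leaves a domain with 1 array, assumed to vary like the other.

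In sorted neurons the 5 higher members were 3 at 5%, 3 with E13.5 neurons alone (chosen after seeing the data) and 2 to 6 when an array was left out, with 2 without mdDA domain replicate 2 and 3 without mdDA domain replicate 1, either lateral replicate or E14.5 replicate 2. The lower member, *Fgfr3*, was not called (0) after quantile normalization, with arrays centred on their medians, at 5% or with E14.5 neurons alone, and the count was 0 to 1 when an array was left out. The 11 members of the F test were 7 to 9 when an array was left out, with 7 without lateral replicate 2. Centring moved the median over all probe sets in sorted neurons from -0.08 to 0.12, and under it *Fgf14* (0.73) and *Spred2* (0.91) also passed. The cause of these changes was not tested.

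The replicate numbers did not pair the arrays (correlation of deviations -0.01 between the domains). Without the replicate block 2 members were higher and 3 lower in the mdDA domain, *Fgf15* in addition. With the replicate block 4 were higher in sorted neurons (*Fgf12*, *Fgf13*, *Spred2* and *Dusp6*), 1 was lower, 0 differed between stages and 9 passed the F test.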
